A study of Mus musculus with 67 samples.

Results

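Pexmetinib was removed from a hyperplastic organoid culture medium, and 3 libraries grown without it were compared with 3 libraries grown in the complete medium. The libraries came from 67 bulk RNA-seq libraries of mouse intestine. Labels give the medium of each, but not which of the 7 full 8C libraries are the controls of this omission. The study cultured crypt epithelium of the mouse proximal small intestine as Hyper-organoids in the 8C medium, and asked which components of that medium hold up a gene expression state seen after injury. Full 8C, here 8C 4 to 8C 6 after the replicate numbers in the labels, held Pexmetinib (1 µM), GSK3iXV (0.1 µM), LDN193189 (0.2 µM), valproic acid (VPA, 500 µM), EPZ6438 (2 µM), EGF (50 ng/mL), bFGF (20 ng/mL) and 10% R-Spondin 1 conditioned medium. 8C -Pex 1 to 3 had the same components except Pexmetinib. Both groups therefore also carried the histone deacetylase inhibitor VPA, the EZH2 inhibitor EPZ6438, the BMP receptor inhibitor LDN193189 and the GSK3 inhibitor GSK3iXV. Donor mice were 6 to 12 weeks old, the cultures were passaged every 7 days, and the omission experiment was described with 3 mice. The labels do not name the mouse behind a library, so the p-values measure the spread between these cultures.

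Full 8C was also represented by replicates 1 to 3 and 7, and the choice of control decides part of what follows. Replicates 4 to 6 were used because an earlier analysis of these data found that they resembled the omission libraries. The expression values were TPM, in which each library's transcripts are scaled by length and to a fixed total, so the sequencing depth is unknown and no counting error can be given. The 6 columns summed to between 986415 and 987578, and they correlated with each other at 0.967 to 0.991 across genes on a log2 scale. The labelled tissue matched its markers. The sum of 10 pan-epithelial markers was 12981 to 16278 TPM without Pexmetinib and 12068 to 15716 TPM in full 8C, and 0 of the 10 were called. Of 12 immune markers, 10 were under 1 TPM in all 6 libraries and 3 of these were at 0 throughout. The immune sums were 7.69 to 16.2 TPM without Pexmetinib and 7.57 to 17.5 TPM with it. Of 13 stromal and endothelial markers, 11 were under 1 TPM in all 6 libraries, 2 of them at 0, with sums of 4.44 to 5.46 and 3.73 to 6.24 TPM.

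Pexmetinib inhibits the stress kinase p38 and the angiopoietin receptor Tie2. In the p38 pathway, upstream kinases such as MAP2K3 and MAP2K6 phosphorylate p38, which in turn activates the kinase MAPKAPK2 and transcription factors of the ATF, CREB and AP-1 families. MAPKAPK2 also stabilises inflammatory messages that carry AU-rich elements, and dual-specificity phosphatases switch the pathway off. In the small intestine, stem cells at the crypt base give rise to absorptive enterocytes and to 4 secretory lineages. Enteroendocrine cells release peptide hormones, tuft cells are chemosensory, goblet cells secrete mucus, and Paneth cells secrete antimicrobial peptides. Commitment to the secretory side depends largely on the transcription factor ATOH1, which Notch signalling represses.

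When Pexmetinib was left out, 10 of 17 tested enteroendocrine, 6 of 10 tuft, 6 of 11 goblet and 3 of 12 Paneth cell markers rose. Of the tested markers, 4 enteroendocrine and 5 tuft markers reached the mean of 1 TPM needed for testing only through the group without Pexmetinib. The enteroendocrine and tuft counts are therefore a description. A smaller set of genes fell, among them 3 of 15 tested stress response genes and 4 of 37 tested hypoxia-inducible factor targets. The latter list was assembled after these data had been seen. Differences are log2 fold changes of TPM + 1, 8C -Pex minus full 8C, a scale that understates the change of low genes. Calls required both an adjusted p under 0.05 (limma, Benjamini-Hochberg) and a change of 2-fold or more. Of 12783 genes tested, 105 were called, 0.821% of them. The 68 higher genes were 0.532% and the 37 lower genes 0.289% of those tested. The 3 values of a group did not overlap those of the other in 2614 genes, 20.4% of those tested, and this held for all 105 called genes. At an unadjusted p under 0.05 there were 1685 genes, and the median over all genes tested was -0.04. The number of lower genes was the less stable: it ran from 10 without 8C 5 to 74 without 8C -Pex 2, against 35 without 8C 5 to 78 without 8C -Pex 2 for the higher ones. Called genes in total fell to 56 without 8C -Pex 1, 66 without 8C -Pex 3 and 45 without 8C 5. Libraries with matching numbers (8C -Pex n and 8C n + 3) deviated together, and a fit with these pairs as a block called 203 genes, 1.59% of those tested, 129 higher (1.01%) and 74 lower (0.579%). The paired fit retained all 105 calls. With no minimum TPM, where more genes are tested, 14 of the 49 named calls were lost at adjusted p of 0.0525 to 0.0883 (Ang4, Atoh1, Ccdc88b, Ccl6, Chac1, Defa17, Dusp8, Egln3, Gnat3, Mchr1, Nts, Ptprb, Stbd1 and Trib3).

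The markers of enteroendocrine, goblet, tuft and Paneth cells passed the filter of a mean of 1 TPM in 17 of 18, 11 of 12, 10 of 14 and 12 of 13 cases. Of these 50 tested markers, 25 were called higher (50%) and 0 were called lower. These counts are a description: 9 of the 50, 4 enteroendocrine and 5 tuft markers, averaged under 1 TPM in full 8C and passed the filter only through the group without Pexmetinib, and 5 of these 9 were called. In bulk RNA, more cells of a lineage and more RNA per cell cannot be told apart. The control libraries mattered here. Of all 12756 genes tested against 8C 1 to 3, 797 were called, 431 higher and 366 lower. With all 7 full 8C libraries it was 62 of 12860, 43 higher and 19 lower. Against 8C 1 to 3, 16 of the 33 named genes called higher lost their call or changed sign, as did 9 of the 16 named genes called lower (Mchr1 and Ptprb were under the filter there). With all 7 full 8C libraries it was 17 of the higher genes (Sh2d6 was under the filter) and 12 of the lower ones.

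Enteroendocrine hormones were among the largest rises on the log2 scale. Of 17 tested enteroendocrine markers, 10 rose and 0 fell, with a median log2 fold change of 1.50. Leaving out 1 library gave 6 to 11 called higher. Ghrl encodes the appetite hormone ghrelin (chr6:113716119-113719880 on the minus strand in mm10). It measured 939, 541 and 719.6 TPM in 8C -Pex 1 to 3 and 178, 107 and 132 TPM in 8C 4 to 6 (log2 fold change 2.38 ± 0.23, adjusted p = 0.00275). The lowest library without Pexmetinib stood above the highest with it by a wide margin, and Ghrl kept its call in every alternative tried. Sst, the inhibitory hormone somatostatin, measured 614, 276 and 333 TPM without Pexmetinib and 81.6, 45.7 and 52.8 TPM with it (log2 fold change 2.70 ± 0.33, adjusted p = 0.0123). Gip, the incretin of the upper intestine, measured 573, 230.5 and 310.2 against 74.2, 34.9 and 34.6 TPM (log2 fold change 2.92 ± 0.43, adjusted p = 0.0396). Both were highest in 8C -Pex 1 and, among the controls, in 8C 4, and neither overlapped between groups. Gip lost its call without 8C -Pex 1 or 3 or 8C 5 or 6, with adjusted p up to 0.191 over the 6 fits that left out 1 library, and at the threshold with scaling to the 75th percentile (adjusted p = 0.05005). Sst lost its call without 8C 5 or 6 (adjusted p up to 0.0981).

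Cck, which releases bile and pancreatic enzymes, measured 375, 213 and 282 TPM without Pexmetinib and 80.5, 67.1 and 62.3 TPM in full 8C (log2 fold change 2.01 ± 0.19, adjusted p = 0.00148). The granule proteins rose with the hormones. Chga, chromogranin A, was at 558, 325 and 309 TPM against 122, 111 and 91.1 TPM (log2 fold change 1.82 ± 0.22, adjusted p = 0.00623). Chgb, chromogranin B, was at 1685, 1475 and 1419.9 TPM against 521, 516 and 471.8 TPM, with little spread inside either group (log2 fold change 1.60 ± 0.09, adjusted p = 0.00011). All 3 genes were separated in every library. Lower in level were neurotensin (Nts, 11.4 ± 4.29 against 1.75 ± 1.17 TPM, mean ± SD, n = 3 each; log2 fold change 2.20 ± 0.37, adjusted p = 0.0247), secretin (Sct, 59.4 ± 8.16 against 20.3 ± 2.72 TPM; log2 fold change 1.50 ± 0.15, adjusted p = 0.00183) and Tph1, the serotonin-making enzyme of enterochromaffin cells (18.8 ± 2.35 against 6.34 ± 0.959 TPM; log2 fold change 1.44 ± 0.17, adjusted p = 0.00503). Nts lost its call without 8C -Pex 1 or 3 or 8C 5 or 6 (adjusted p up to 0.127), with a pseudocount of 0.1 TPM (adjusted p = 0.0737) and under quantile normalization (adjusted p = 0.0562). The early endocrine factor Neurog3 was at 59.5, 54.2 and 59.9 TPM without Pexmetinib and 18.6, 38.5 and 54.6 TPM with it, values that approach each other in the last pair (log2 fold change 0.75, 95% interval -0.02 to 1.51, adjusted p = 0.389).

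A list of 26 tested granule and peptide-processing genes, assembled after these data had been seen and sharing Chga and Chgb with the markers, had 12 called higher and 1 lower, with a median of 1.03. It included the prohormone convertase Pcsk1 (36.8 ± 3.42 against 14.1 ± 1.82 TPM; log2 fold change 1.32 ± 0.15, adjusted p = 0.00322), the secretogranin Scg2 (18.5 ± 4.16 against 6.57 ± 1.87 TPM; log2 fold change 1.37 ± 0.22, adjusted p = 0.0212) and Vgf (13.6 ± 1.03 against 3.85 ± 0.286 TPM; log2 fold change 1.59 ± 0.16, adjusted p = 0.00177). The lower gene was Rab26, a vesicle-trafficking GTPase, at 0.829, 1.20 and 0.890 TPM without Pexmetinib and 3.81, 3.75 and 4.11 TPM with it. The endocrine changes depended strongly on which full 8C libraries served as control. With all 7 full 8C libraries, 1 enteroendocrine marker was called higher, and with 8C 1 to 3 it was 3 higher and 1 lower. Ghrl remained called in both, at 2.23 and 1.95. Against 8C 1 to 3, Gip was at 1.12, Sst at 1.86, Cck at 1.09, Nts at 1.48, Chga at 0.75 and Chgb at 0.61, none of them called. Tph1 was close to 0 there, at 0.16 (adjusted p = 0.647), and Sct was at -0.46. With all 7 libraries Chgb was at 1.19 (adjusted p = 0.102) and Tph1 at 0.88 (adjusted p = 0.34).

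**Figure D1:**
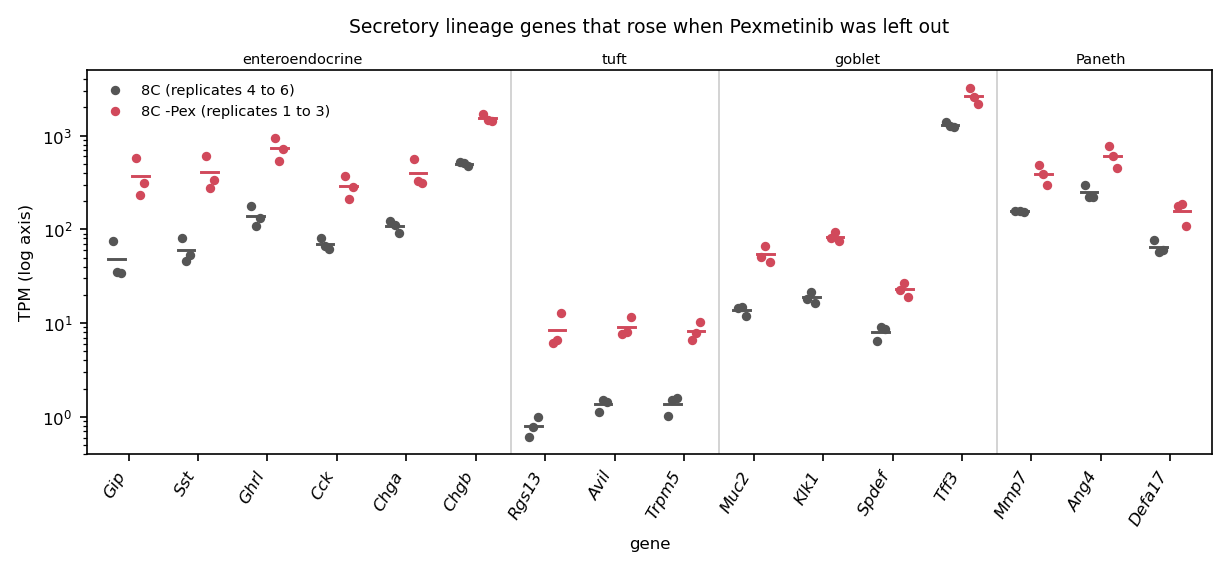
TPM on a log axis of 16 genes higher without Pexmetinib, in 4 blocks for enteroendocrine, tuft, goblet and Paneth genes, with 1 point per library and a line at each group mean (n = 3). For each gene the 3 libraries without Pexmetinib lie above the 3 in full 8C.

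The tuft cell markers that rose did so from low levels. Among the 10 tested, 6 rose and 0 fell, and the median was 1.68. As 5 of the 10, among them 4 of the 6 that rose, passed the filter only through the group without Pexmetinib, neither the count nor the median supports a direction of the list. Rgs13, a regulator of G-protein signalling, was at 6.19, 6.53 and 12.7 TPM without Pexmetinib against 0.610, 0.776 and 0.995 TPM with it (log2 fold change 2.34 ± 0.26, adjusted p = 0.00321). Avil, the actin-binding advillin, was at 7.58, 8.12 and 11.6 against 1.11, 1.51 and 1.45 TPM (log2 fold change 2.08 ± 0.21, adjusted p = 0.00148). Trpm5, the cation channel of the taste cascade, was at 6.53, 7.82 and 10.2 against 1.03, 1.50 and 1.60 TPM (log2 fold change 1.94 ± 0.21, adjusted p = 0.00275). In each of these 3 genes the groups were far apart, and each kept its call in all alternatives in which it was tested, including the 8C 1 to 3 controls. Rgs13, however, passed the filter only through the group without Pexmetinib. Gnat3, the taste G-protein gustducin, spread more widely at 2.70, 5.64 and 8.24 TPM against 0.371, 0.314 and 0.538 TPM (log2 fold change 2.12 ± 0.31, adjusted p = 0.0123), and its call was lost without 8C 4 or 5 (adjusted p up to 0.0636). Sh2d6 rose as well (1.97 ± 0.150 against 0.123 ± 0.213 TPM; log2 fold change 1.42 ± 0.21, adjusted p = 0.0133) and lost its call without 8C 4 (adjusted p up to 0.0572).

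Other genes among the largest rises stood at the same low level. Sh2d7 was at 5.05, 5.67 and 4.99 TPM against 0.0915, 0.0776 and 0 TPM (log2 fold change 2.56 ± 0.18, adjusted p = 0.000283). Lrmp was at 7.68, 7.54 and 9.57 against 0.620, 0.526 and 0.495 TPM (log2 fold change 2.58 ± 0.18, adjusted p = 0.000283), and Spib, an ETS-family transcription factor, at 5.96, 6.24 and 8.04 against 0.352, 0.597 and 0.128 TPM (log2 fold change 2.52 ± 0.21, adjusted p = 0.000685). These 3 genes kept their calls in every alternative in which they were tested. They averaged 0.056, 0.547 and 0.359 TPM in full 8C and passed the filter only through the group without Pexmetinib. Their calls are therefore a description. The best known tuft marker, Dclk1, stayed under the filter at 1.29, 2.04 and 1.91 TPM without Pexmetinib and 0.215, 0.126 and 0.0957 TPM with it. Pou2f3, the transcription factor that defines the tuft lineage, was at 10.5, 13.1 and 17.7 and 5.97, 10.3 and 10.7 TPM and was not called (log2 fold change 0.57, 95% interval 0.01 to 1.14, adjusted p = 0.372). The number of tuft markers called was 7 with all 7 full 8C libraries, 9 with 8C 1 to 3 and 1 with a minimum mean of 5 TPM, which leaves most of these low genes untested. The limit set by the filter holds for these counts too.

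Goblet markers included 6 that rose and 0 that fell of 11 tested, with a median of 1.39, and 4 to 7 rose when 1 library was left out. Muc2, the gel-forming mucin of intestinal mucus, was at 50.5, 66.9 and 44.6 TPM without Pexmetinib and 14.3, 14.9 and 11.9 TPM with it (log2 fold change 1.89 ± 0.17, adjusted p = 0.00134). Klk1, a kallikrein protease, was at 81.7, 94.8 and 74.5 against 18.3, 21.7 and 16.3 TPM (log2 fold change 2.10 ± 0.15, adjusted p = 0.000283). Both were clearly separated and kept their calls in all alternatives. Tff3, the goblet cell trefoil peptide, was one of the most abundant transcripts at 3232, 2602 and 2164 TPM against 1409, 1281 and 1226 TPM (log2 fold change 1.01 ± 0.13, adjusted p = 0.00785). Its change lay at the 2-fold limit, and the call was lost without 8C -Pex 1 or 8C 6, with log2 fold changes of 0.86 to 1.15 over the 6 fits. Fcgbp, a mucus-associated protein, rose (302 ± 45.6 against 118 ± 10.9 TPM; log2 fold change 1.34 ± 0.13, adjusted p = 0.00148), as did Spdef, the factor of goblet and Paneth maturation (22.9 ± 4.04 against 8.09 ± 1.42 TPM; log2 fold change 1.39 ± 0.19, adjusted p = 0.00924). The chemokine Ccl6 was called at a low level (5.31 ± 2.01 against 1.14 ± 0.415 TPM; log2 fold change 1.53 ± 0.26, adjusted p = 0.0247) and lost the call without 8C -Pex 1 or 8C 4 or 5 (adjusted p up to 0.113) and under quantile normalization (adjusted p = 0.0502), as did Tff3 under the latter at 0.98. Spink4 passed the p threshold under the 2-fold limit (2988 ± 581 against 1542 ± 135 TPM; log2 fold change 0.94 ± 0.14, adjusted p = 0.0123). Against 8C 1 to 3 the goblet count was 3, Tff3 was at 0.98, just under the 2-fold limit, Fcgbp at 0.77, Ccl6 at 0.05 and Spdef at -0.27.

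Of 12 tested Paneth markers 3 rose and 0 fell, the median was 1.04, and 5 rose in the paired fit. The count was 1 to 3 when 1 library was left out. Mmp7, the protease that activates defensins, was at 487, 389 and 296 TPM against 158, 157 and 154 TPM (log2 fold change 1.29 ± 0.16, adjusted p = 0.00623), and kept its call in all alternatives. Ang4, an antimicrobial ribonuclease, was at 778, 608 and 455 against 299.9, 224 and 221 TPM (log2 fold change 1.28 ± 0.19, adjusted p = 0.0161). The α-defensin Defa17 was at 177, 188 and 109 against 77.0, 57.7 and 59.9 TPM (log2 fold change 1.24 ± 0.21, adjusted p = 0.0231). Full 8C libraries were close together for Mmp7, and the groups were separate for all 3 genes. Ang4 lost its call without 8C -Pex 1 or 8C 5 or 6 (adjusted p up to 0.0823) and Defa17 without 8C -Pex 1 or 8C 5 or 6 (adjusted p up to 0.124). Defa17 also lost it under quantile normalization (adjusted p = 0.0559) and without trend and robust moderation (adjusted p = 0.0618). Both belong to families of near-identical genes in which reads can be assigned to the wrong copy, and Defa17 was at -0.09 against 8C 1 to 3. Lysozyme, Lyz1, was at 584, 748 and 455 TPM and 474, 489 and 466 TPM and was not called (log2 fold change 0.29, 95% interval -0.06 to 0.64, adjusted p = 0.467).

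Upstream of these lineages, 1 of 14 tested secretory factors rose, with 1 higher and 3 lower against 8C 1 to 3. This was Atoh1, at 14.5, 17.3 and 9.88 TPM without Pexmetinib and 2.38, 3.83 and 5.18 TPM with it (log2 fold change 1.64 ± 0.27, adjusted p = 0.0212), with no overlap. The call was lost without 8C -Pex 1 or 8C 4 or 5, with log2 fold changes of 1.41 to 1.85 and adjusted p up to 0.0975. Hes1, the Notch target that represses Atoh1, overlapped at 53.7, 58.8 and 71.6 and 53.3, 70.2 and 77.6 TPM (log2 fold change -0.12, 95% interval -0.49 to 0.26, adjusted p = 0.81), and the Notch ligand Dll1 was not called either (log2 fold change 0.05, 95% interval -0.36 to 0.47, adjusted p = 0.928). Among 19 tested enterocyte markers 1 rose, the brush-border aminopeptidase Anpep (369.6, 376 and 439.7 against 141, 190.0 and 211 TPM; log2 fold change 1.14 ± 0.15, adjusted p = 0.00791), which fell under the 2-fold limit without 8C 4 (log2 fold change 0.97). Anpep was at 0.49 and not called against 8C 1 to 3 (adjusted p = 0.054), and not called with all 7 full 8C libraries (adjusted p = 0.25). The enterocyte median was 0.56 and 16 of the 19 were positive. The list had 5 called higher with 8C 1 to 3 and 0 with all 7. Of 20 proliferation genes 0 were called (5 at an unadjusted p under 0.05), with a median of 0.23 and 19 positive.

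The pairing of cultures separated a further group of genes. Apoa1, the enterocyte apolipoprotein, was at 388, 62.3 and 49.5 TPM without Pexmetinib and 74.97, 12.6 and 11.1 TPM with it. The first culture was several-fold above the others in both media, so the groups overlapped and the unpaired test did not call it (log2 fold change 2.21, 95% interval -0.83 to 5.25, adjusted p = 0.504), whereas the paired fit did (adjusted p = 5.84e-05). Zg16, a mucus lectin of goblet cells, behaved alike at 151, 39.8 and 17.7 against 20.9, 3.92 and 1.02 TPM (adjusted p = 0.382 unpaired and 3.79e-05 paired). Reg1 was at 1499.7, 225 and 287 against 338, 80.0 and 88.7 TPM (adjusted p = 0.538 and 0.000353), and the goblet gene Clca1 at 77.7, 14.2 and 14.6 against 11.8, 1.76 and 2.42 TPM (adjusted p = 0.346 and 0.000173). Every one of these genes was higher without Pexmetinib within each pair. With pairs, enterocyte markers had 6 called higher, goblet markers 8, tuft markers 8 and enteroendocrine markers 11. These 4 genes were chosen after their values had been seen.

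Of the remaining largest rises, Reg4, a secreted lectin, was the most abundant, at 1200.2, 949 and 942 TPM against 211, 199 and 221 TPM (log2 fold change 2.28 ± 0.11, adjusted p = 4.84e-05). Tff2, a trefoil peptide of gastric and duodenal glands, was at 10.3, 9.25 and 8.33 TPM without Pexmetinib and 0, 0.733 and 0.313 TPM with it (log2 fold change 2.97 ± 0.23, adjusted p = 0.000465). Afp, α-fetoprotein, was at 70.9, 47.2 and 45.5 against 8.47, 5.72 and 6.25 TPM (log2 fold change 2.82 ± 0.21, adjusted p = 0.000338). All 3 genes were separated in every library. Tff2 averaged 0.349 TPM in full 8C and passed the filter only through the group without Pexmetinib. With 8C 1 to 3 as control, Reg4 fell to 0.59 and was not called, while Tff2 at 1.45 and Afp at 1.11 were. With all 7 full 8C libraries none of the 3 was called (adjusted p = 0.324, 0.0572 and 0.0841 for Reg4, Tff2 and Afp).

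Some promoters of these genes carry the motifs of factors that act downstream of p38, and they are shown for this reason. The letters searched on both strands were TGACGTCA, the cyclic AMP response element (CRE) bound by ATF and CREB factors, and TGACTCA, which reads TGAGTCA on the other strand and is bound by AP-1. The AP-1 letters were narrowed to these from TGANTCA after the data had been seen. The windows ran from 250 bases before to 50 bases after each RefSeq start site (GRCm38.p6), and were found by symbol for 57 of the 68 higher and 25 of the 37 lower genes. The first stretches below hold the CRE and the last ones the AP-1 letters. Each is written 5′ to 3′ on the strand of its gene, with the motif in capitals. Chgb lies at chr2:132781560-132781587 (plus strand), Pcsk1 at chr13:75089769-75089796 (plus), Scg2 at chr1:79440077-79440104 (minus), Sst at chr16:23890875-23890902 (minus), Fscn1 at chr5:142960300-142960327 (plus), Mmp7 at chr9:7692017-7692043 (plus) and Nts at chr10:102490609-102490635 (minus). The motif starts 72, 78, 68, 48, 45, 63 and 207 bases upstream of the start site, in that order. In the GENCODE annotation the Chgb, Scg2 and Sst stretches lie in an exon and the others upstream of the gene.
Chgb: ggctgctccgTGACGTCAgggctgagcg
Pcsk1: caggtagatcTGACGTCAagagatggct
Scg2: gctgagccggTGACGTCAgcgtggaatg
Sst: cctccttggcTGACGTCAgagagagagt
Fscn1: gtggccacggTGACGTCAtcctcctata
Mmp7: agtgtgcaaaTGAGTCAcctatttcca
Nts: actctttctgTGAGTCAgaaatcctga

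The CRE was present in 4 of the 57 higher genes (7.02%), namely Chgb, Pcsk1, Scg2 and Sst, all of them genes of hormone-secreting cells. It was present in 2 of the 25 lower genes (8%), Dusp8 and Fscn1, which encodes an actin-bundling protein and fell (17.8 ± 4.01 against 46.6 ± 8.61 TPM; log2 fold change -1.35 ± 0.19, adjusted p = 0.00988). Over the 10066 tested genes with a window the share was 3.61%, and over all 32851 windows it was 1.79%. The AP-1 letters occurred in 6 of the 57 higher genes (10.5%), 2 of the 25 lower genes (8%) and 4.78% of tested genes, and in 5.2% of all windows. The 6 higher genes were Ang4, Guca2a, Hpd, Mmp7, Nts and Scgn, and the lower ones Ankrd22 and Ddit3. The looser TGANTCA was in 9 of the 57 higher genes (15.8%), with Ccl9, Ghrl and Muc2 in addition, in 2 of the 25 lower genes (8%), in 6.37% of tested genes and in 7.81% of all windows. No called gene with a window held both motifs. These are counts of letters in a window and were given no test.

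The genes of the drug's own targets were not called, at the level of RNA, which does not measure kinase activity. Of 4 p38 kinase genes tested 0 were called and 1 had an unadjusted p under 0.05. Mapk13, p38δ, was the most abundant at 1013, 901 and 857 TPM without Pexmetinib and 863, 929 and 808 TPM with it (log2 fold change 0.09, 95% interval -0.12 to 0.30, adjusted p = 0.738). Mapk14, p38α, was at 41.8, 55.1 and 50.3 and 46.7, 51.6 and 54.2 TPM (log2 fold change -0.06, 95% interval -0.37 to 0.25, adjusted p = 0.898), and Mapk12, p38γ, at 7.46, 5.45 and 8.45 and 7.03, 6.64 and 7.22 TPM (log2 fold change 0.01, 95% interval -0.41 to 0.43, adjusted p = 0.986). These 3 genes overlapped between media. Mapk11, p38β, did not overlap at 33.8, 23.7 and 28.4 against 43.6, 38.2 and 37.9 TPM but was not called (log2 fold change -0.48, 95% interval -0.82 to -0.13, adjusted p = 0.21). Mapkapk2 was not called (189 ± 12.7 against 167 ± 1.60 TPM; log2 fold change 0.17, 95% interval -0.05 to 0.39, adjusted p = 0.502).

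Tek, which encodes Tie2, was at 0.0558, 0.121 and 0.314 TPM without Pexmetinib and 0.0536, 0 and 0 TPM with it, under the filter in both groups. Of 7 genes of the Tie2 system 2 were tested, and the phosphatase Ptprb, which dephosphorylates Tie2, fell from 3.41, 2.81 and 2.28 to 0.532, 0.874 and 0.603 TPM (log2 fold change -1.19 ± 0.20, adjusted p = 0.0252). That call was lost without 8C -Pex 1 or 3 or 8C 4 or 5 (adjusted p up to 0.129) and with the trend on transcript length removed (adjusted p = 0.054). Angpt2, a Tie2 ligand, overlapped at 12.2, 17.2 and 35.1 and 18, 22.8 and 25.6 TPM (log2 fold change -0.16, 95% interval -0.92 to 0.60, adjusted p = 0.879).

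The input side of the p38 pathway had 16 tested genes and 0 calls (3 at an unadjusted p under 0.05), with a median of -0.11. A pair of them passed the p threshold at less than 2-fold. The p38-activating kinase Map2k6 was at 24.4, 31.9 and 33.2 TPM against 75.7, 53.1 and 52.4 TPM (log2 fold change -0.98 ± 0.18, adjusted p = 0.0351), and Gadd45a, a stress-induced activator of the pathway, at 84.9, 94.6 and 82.4 against 207, 149.6 and 139.7 TPM (log2 fold change -0.90 ± 0.15, adjusted p = 0.0262). Both were lower in every library without the inhibitor. On the output side, 0 of 20 tested AP-1 and immediate early genes were called (2 at an unadjusted p under 0.05, median 0.11), and Fos overlapped at 1032, 1096 and 672 and 978, 944 and 542 TPM. Of 22 tested AU-rich inflammatory messages 0 were called (5 at an unadjusted p under 0.05, median 0.02), as were 0 of 24 ERK output genes (3 at such a p, median -0.13). These zeros depended on the control. Of all 12756 genes tested against 8C 1 to 3, 797 were called, 431 higher and 366 lower. There the AU-rich messages had 8 higher and 1 lower and the ERK output genes 5 higher. With all 7 full 8C libraries both lists had 0 calls. Dusp1, a p38 and JNK phosphatase, was at 47.1, 38.4 and 27.6 TPM without Pexmetinib and 60.1, 45.6 and 27.6 TPM with it (log2 fold change -0.20, 95% interval -0.84 to 0.45, adjusted p = 0.817), but at 1.58 against 8C 1 to 3, where 11 AP-1 and immediate early genes were called higher.

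Of 7 tested phosphatases of the pathway 1 fell, Dusp8, a dual-specificity phosphatase of JNK and p38 (chr7:142079490-142095843 on the minus strand). It was at 6.80, 12.7 and 7.78 TPM without Pexmetinib and 34.3, 27.1 and 21.5 TPM in 8C 4 to 6 (log2 fold change -1.52 ± 0.24, adjusted p = 0.02). The groups were separate, with 8C -Pex 2 the highest of its group. The call was lost without 8C -Pex 1 or 3 or 8C 4 or 5 (log2 fold change -1.77 to -1.36, adjusted p up to 0.0987). In 8C 1 to 3 the level was 8.33 ± 2.04 TPM, as low as without Pexmetinib, and the difference was 0.09. The window upstream of a Dusp8 start site held 2 copies of the CRE, 107 and 63 bases before the start, and is shown for that reason. The 150 bases lie at chr7:142095285-142095434 on the minus strand (GRCm38.p6), within an intron of the GENCODE gene model, and the capitals mark the CRE letters.
Dusp8: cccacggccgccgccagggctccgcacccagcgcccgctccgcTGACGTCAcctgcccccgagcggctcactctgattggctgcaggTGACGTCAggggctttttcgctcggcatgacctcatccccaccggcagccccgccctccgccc

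Genes known to respond to oxygen were among the largest falls. Stc1, the glycoprotein hormone stanniocalcin (chr14:69029238-69041804 on the plus strand), was at 0.877, 1.22 and 1.21 TPM without Pexmetinib and 6.68, 7.95 and 6.45 TPM with it (log2 fold change -1.93 ± 0.18, adjusted p = 0.00148). Ankrd37, a target of hypoxia-inducible factor, was at 11.4, 8.50 and 9.21 against 41.8, 35.3 and 36.0 TPM (log2 fold change -1.86 ± 0.16, adjusted p = 0.000724). Both were several-fold apart with little spread, and they kept their calls in all alternatives, at -2.77 and -2.63 against 8C 1 to 3. Egln3, the prolyl hydroxylase that marks the factor for degradation and is itself its target, was at 167, 189.6 and 156 against 570.5, 404 and 324 TPM (log2 fold change -1.30 ± 0.18, adjusted p = 0.0109). It lost its call without 8C -Pex 1 or 3 (adjusted p up to 0.0833), and was at -1.46 and called against 8C 1 to 3. Ndufa4l2, a mitochondrial subunit paralog induced in low oxygen, fell too (17.8 ± 1.49 against 40.2 ± 10.4 TPM; log2 fold change -1.11 ± 0.18, adjusted p = 0.0231).

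The list of 37 tested hypoxia-inducible factor targets had 4 called lower and 0 higher. Of its members 1 had a positive log2 fold change and the median was -0.52. The glucose transporter Slc2a1 was at 76.2, 116 and 87.8 TPM without Pexmetinib and 194, 181 and 146 TPM with it, past the p threshold but under 2-fold (log2 fold change -0.90 ± 0.17, adjusted p = 0.0396). Vegfa was at 29.8, 42.5 and 37.8 against 50.3, 51.9 and 51.0 TPM (log2 fold change -0.48, 95% interval -0.81 to -0.15, adjusted p = 0.187). Neither overlapped between media. In the paired fit 6 of the list fell, among them the mitophagy receptor Bnip3 (106, 219.7 and 163 against 335, 295 and 372 TPM; adjusted p = 0.0241). Oxygen was no variable of the design.

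Genes of the integrated stress response fell as well. Of 15 tested genes of the unfolded protein and integrated stress responses 3 fell and 0 rose, 1 was positive, and the median was -0.33. Chac1, a glutathione-degrading enzyme induced by ATF4, was at 12.7, 25.7 and 13.1 TPM without Pexmetinib and 50.9, 44.6 and 45.3 TPM with it (log2 fold change -1.47 ± 0.24, adjusted p = 0.0217). Trib3, a pseudokinase, was at 18.9, 31.2 and 27.9 against 60.2, 62.9 and 58.8 TPM (log2 fold change -1.22 ± 0.18, adjusted p = 0.0123), and Ddit3, the factor CHOP, which p38 can phosphorylate, at 15.6, 15.3 and 11.9 against 34.3, 31.5 and 29.1 TPM (log2 fold change -1.10 ± 0.16, adjusted p = 0.0106). The groups were separate for all 3 genes. The chaperone Hspa5, a marker of the unfolded protein response, was not called (526 ± 58.6 against 565 ± 21.0 TPM; log2 fold change -0.11, 95% interval -0.33 to 0.12, adjusted p = 0.701). The 3 calls were fragile. Chac1 lost its call without 8C -Pex 1 or 3 or 8C 4, 5 or 6 (adjusted p up to 0.113), Trib3 without 8C 4 or 5 (up to 0.0775) and Ddit3 without 8C -Pex 3 or 8C 4 or 5 (up to 0.0775). Against 8C 1 to 3 Chac1 was at -0.09 and Ddit3 at 0.29, and Trib3 was called at -1.06, but not with all 7 libraries (adjusted p = 0.102).

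Among the other large falls, Lgals1, the β-galactoside-binding lectin galectin-1, had the highest level, at 248.5, 189 and 162 TPM without Pexmetinib and 656, 477 and 434 TPM with it (log2 fold change -1.38 ± 0.19, adjusted p = 0.00876). Ptges, the prostaglandin E synthase, was at 9.96, 10.3 and 11.95 against 41.9, 25.6 and 31.8 TPM (log2 fold change -1.52 ± 0.19, adjusted p = 0.00634), and Kcnj8, a potassium channel subunit, at 7.12, 9.60 and 7.56 against 34.5, 29.3 and 25.9 TPM (log2 fold change -1.76 ± 0.17, adjusted p = 0.00148). The groups were separate in 8C 4 to 6, but against 8C 1 to 3 the direction turned, with Ptges called higher at 1.15 (adjusted p = 0.0161), and Lgals1 at 0.72 and Kcnj8 at 0.50 not called. Ccdc88b also turned, from -1.43 to 0.25, and lost its call without 8C -Pex 3 or 8C 4 or 5 (adjusted p up to 0.0775). Vstm5 was at 18.3, 16.3 and 18.4 against 70.6, 46.4 and 39.1 TPM (log2 fold change -1.46 ± 0.20, adjusted p = 0.00983) and at -1.50 and called against 8C 1 to 3, although the call was lost without 8C -Pex 1 (adjusted p up to 0.056). The rule also named Prl6a1 (2.69 ± 0.440 against 11.9 ± 2.38 TPM; log2 fold change -1.80 ± 0.20, adjusted p = 0.00286), the glycogen-binding protein Stbd1 (8.00 ± 1.77 against 26.3 ± 8.05 TPM; log2 fold change -1.58 ± 0.23, adjusted p = 0.0129) and the receptor Mchr1 (0.318 ± 0.176 against 2.48 ± 0.772 TPM; log2 fold change -1.38 ± 0.23, adjusted p = 0.0247). Stbd1 lost its call without 8C -Pex 1 or 8C 5 (adjusted p up to 0.0589), and Mchr1 without 8C -Pex 1 or 3 or 8C 5 or 6 (up to 0.129). Prl6a1 was at -0.73 and Stbd1 at -0.83 against 8C 1 to 3, neither of them called.

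**Figure D2:**
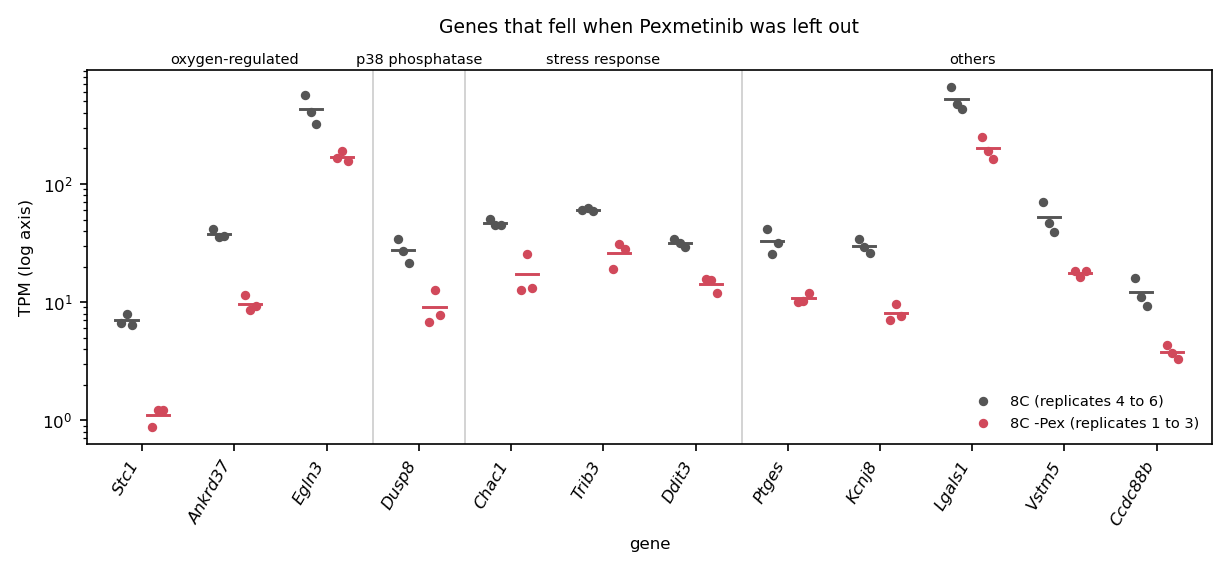
TPM on a log axis of 12 genes lower without Pexmetinib, in blocks for oxygen-regulated genes (Stc1, Ankrd37, Egln3), the phosphatase Dusp8, stress response genes (Chac1, Trib3, Ddit3) and other large falls, with 1 point per library and a line at each group mean (n = 3). The 3 libraries without Pexmetinib lie below the 3 in full 8C for every gene, and 8C -Pex 2 is the highest of its group for Dusp8, Chac1 and Trib3.

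The regenerative markers by which the study follows Hyper-organoids were not called. Of 7 tested 0 were called and 0 had an unadjusted p under 0.05, with a median of -0.14. Clu, the marker of revival stem cells, was at 421, 90.9 and 218 TPM without Pexmetinib and 127, 56.2 and 40.6 TPM with it, overlapping groups with a large spread between cultures (log2 fold change 1.60, 95% interval -0.17 to 3.37, adjusted p = 0.419). Each culture without Pexmetinib was above its partner, and the paired fit called Clu higher (adjusted p = 0.0168). Ly6a, which encodes Sca1, was lower within each pair at 559, 192 and 332 against 811, 482 and 403 TPM, but was not called unpaired (log2 fold change -0.71, 95% interval -1.84 to 0.41, adjusted p = 0.574) or paired (adjusted p = 0.0659). Anxa1 was at 135, 47.7 and 91.4 and 152, 69.8 and 76.5 TPM (log2 fold change -0.15, 95% interval -1.24 to 0.94, adjusted p = 0.919). The antimicrobial lectins Reg3b (2754 ± 1249 against 2175 ± 668 TPM; log2 fold change 0.29, 95% interval -0.61 to 1.19, adjusted p = 0.789) and Reg3g (1934 ± 531 against 1795 ± 486 TPM; log2 fold change 0.11, 95% interval -0.45 to 0.66, adjusted p = 0.886) were not called. The intervals of Clu, Ly6a, Anxa1 and Reg3b leave room for changes of more than 2-fold. The direction turned against 8C 1 to 3 for Ly6a (2.14) and Anxa1 (1.53), whereas Reg3b at 2.05 and Reg3g at 2.08 were higher than with 8C 4 to 6. Against these controls 4 regenerative markers were called higher, and 797 of all 12756 genes tested were called, 431 higher.

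The injury signature that the study assembled from published injury models was counted next. Of 59 tested genes of its upregulated side 1 fell (Egln3, 1.69%) and 0 rose, with a median of -0.06. Of 52 tested genes of its downregulated side 1 rose (Ccl6, 1.92%) and 0 fell, with a median of -0.01. Over all genes tested 0.821% were called, so 1 call on a side marks nothing particular to the signature. The paired fit called 2 lower on the upregulated side and 2 higher on the downregulated side, with 1.59% called over all genes tested. Against 8C 1 to 3 the upregulated side had 11 higher and 2 lower and the downregulated side 8 higher. With these controls 797 of all 12756 genes tested were called, 431 higher and 366 lower. Of 8 tested YAP targets that the study names, 0 were called and 1 had an unadjusted p under 0.05, whereas 4 were called higher against 8C 1 to 3. Among 15 stem cell markers 0 were called and 0 had an unadjusted p under 0.05, with a median of 0.07. Lgr5, the receptor of crypt base stem cells, was at 26.8, 45.1 and 57.8 and 42.4, 50.6 and 63.8 TPM (log2 fold change -0.32, 95% interval -0.91 to 0.28, adjusted p = 0.658), and Olfm4 was low and variable at 7.81, 19.7 and 43.4 and 12.9, 6.57 and 17.1 TPM (log2 fold change 0.70, 95% interval -0.81 to 2.20, adjusted p = 0.695). Both overlapped between media.

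**Figure D3:**
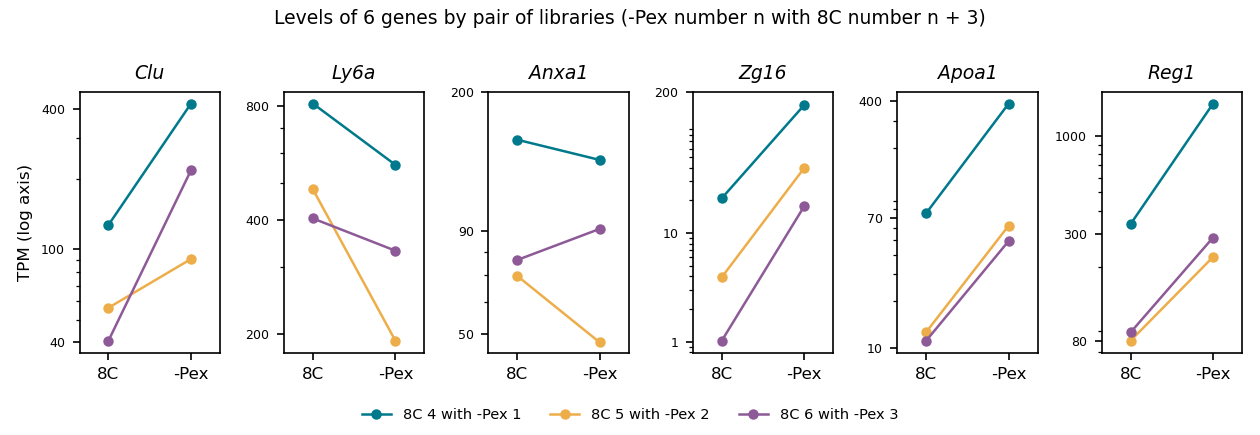
TPM on a log axis of Clu, Ly6a, Anxa1, Zg16, Apoa1 and Reg1 by culture pair, each line joining a full 8C library (8C 4, 5 or 6) to the library without Pexmetinib that deviates with it (8C -Pex 1, 2 or 3). Clu, Zg16, Apoa1 and Reg1 are higher without Pexmetinib in all 3 pairs although the groups overlap, whereas Ly6a is lower in all 3 and Anxa1 moves in both directions.

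Other lists had few or no calls. Of 17 tested cholesterol and fatty acid synthesis genes 0 were called, 5 had an unadjusted p under 0.05 and 0 were positive, with a median of -0.41, and 2 fell in the paired fit. NRF2 and oxidative stress genes had 0 calls of 15 tested, 4 at an unadjusted p under 0.05, and a median of -0.27, and 1 fell in the paired fit. There were 0 calls among 10 Wnt feedback targets, 13 BMP and TGF-beta responses, 24 interferon and antigen presentation genes, 13 p53 targets and 15 keratins and squamous genes, where 0, 4, 6, 1 and 2 had an unadjusted p under 0.05. Paired, 1 BMP and TGF-beta response fell and 1 keratin or squamous gene rose. Against 8C 1 to 3, where 797 of all 12756 genes tested were called, interferon and antigen presentation genes had 5 higher. BMP and TGF-beta responses had 1 higher and 3 lower there, keratins and squamous genes 3 higher and p38 effector genes 2 higher. The p53, NRF2, and cholesterol and fatty acid synthesis lists had 0 calls there. Of 4 tested aryl hydrocarbon receptor targets and 3 enterocyte progenitor markers 0 were called, with 1 in each list at an unadjusted p under 0.05 (1 receptor target fell in the paired fit), and 18 of 19 p38 effector genes were not called, the exception being Ddit3.

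**Figure D4:**
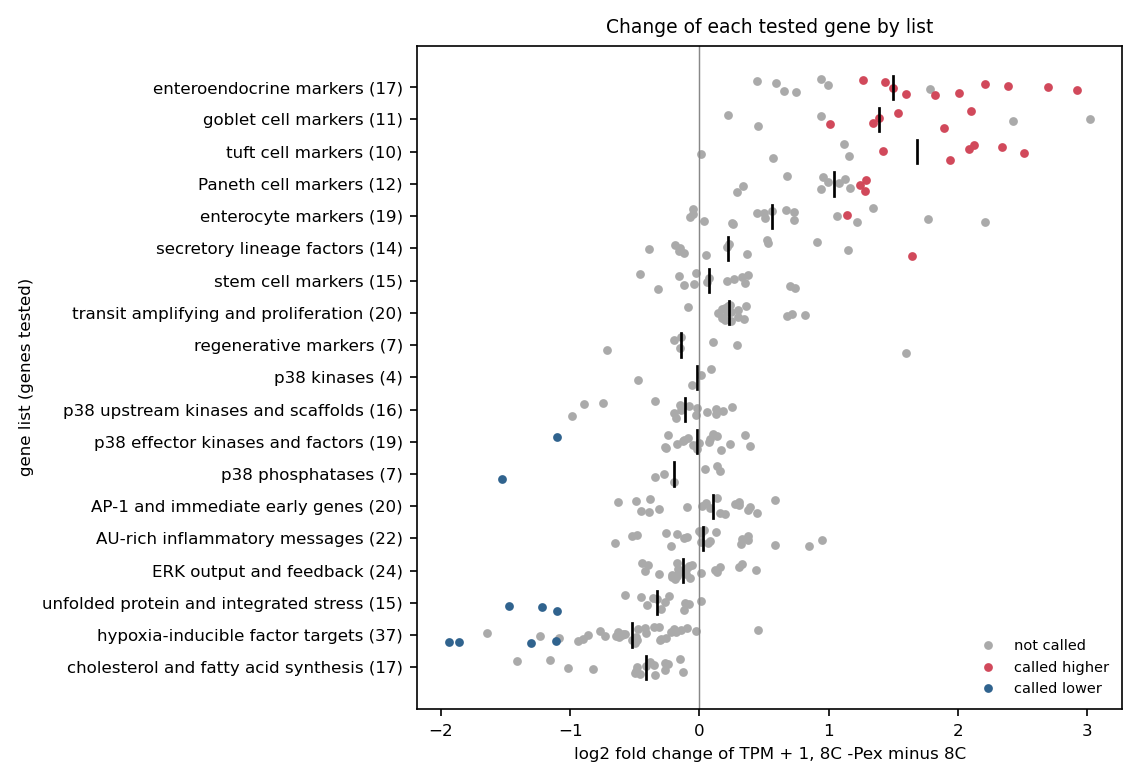
Log2 fold change of TPM + 1, 8C -Pex minus full 8C, for each tested gene of 19 lists, with a bar at each list's median and colours for genes called higher, called lower or not called. Enteroendocrine, tuft, goblet and Paneth markers lie to the positive side with medians of 1.50, 1.68, 1.39 and 1.04 (5 of the 10 tuft and 4 of the 17 enteroendocrine markers passed the filter only through the group without Pexmetinib, so these medians support no direction), hypoxia-inducible factor targets and stress response genes lie mostly to the negative side, and p38 pathway lists centre near 0.

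A second comparison left the full 8C libraries aside. One fit over the 4 omission media set 8C -Pex against the mean of 8C -EGF, 8C -bFGF and 8C -GSK3i (3 libraries each), which all contain Pexmetinib and lack another component, so it asks whether the removal of Pexmetinib differs from the removal of another component. It shares the 8C -Pex libraries with the first comparison, and the values are given side by side only. Of 12764 genes tested 101 differed (0.791%), 75 higher (0.588%) and 26 lower (0.204%). Same-numbered deviations of 8C -Pex correlated at 0.27, 0.46 and 0.31 with 8C -bFGF, at 0.43, 0.48 and 0.27 with 8C -GSK3i, and at 0.23, 0.32 and 0.04 with 8C -EGF. A fit with this number as a replicate block called 148 genes (1.16%), 111 higher (0.87%) and 37 lower (0.29%), which included all 101. Enteroendocrine markers had 12 higher of 17 tested, tuft markers 5 of 9, goblet markers 4 of 11, and Paneth markers 2 higher and 1 lower of 12. Ghrl averaged 733 TPM without Pexmetinib, against means of 158, 119 and 213 TPM without EGF, bFGF and GSK3iXV (log2 difference 2.18 ± 0.16, adjusted p = 1.91e-05). Rgs13 averaged 8.46 TPM, against means of 1.33, 0.470 and 2.23 TPM (log2 difference 2.03 ± 0.20, adjusted p = 0.000217). Both were far above the mean of the other 3 media. Muc2 differed as well (log2 difference 1.59 ± 0.18, adjusted p = 0.000372), although the mean without GSK3iXV, 38.4 TPM, approached the 54.0 TPM without Pexmetinib. Klk1 was called too (log2 difference 1.05 ± 0.19, adjusted p = 0.0118). Its mean without GSK3iXV, 84.1 TPM, was as high as the 83.7 TPM without Pexmetinib.

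Of the falling genes, Stc1 (log2 difference -1.67 ± 0.23, adjusted p = 0.00155), Dusp8 (log2 difference -1.51 ± 0.17, adjusted p = 0.000372), Chac1 (log2 difference -1.76 ± 0.22, adjusted p = 0.000951), Trib3 (log2 difference -1.39 ± 0.14, adjusted p = 0.000196) and Ddit3 (log2 difference -1.13 ± 0.11, adjusted p = 0.000134) were called lower in this comparison too. Dusp8 averaged 9.10 TPM, against means of 34.9, 22.5 and 25.2 TPM in the other 3 omissions, and Chac1 17.1 TPM against means of 82.3, 48.5 and 50.3 TPM. For these genes the level was lower than in the mean of those 3 media, a comparison that uses no full 8C library. Ankrd37 was under 2-fold and not called (log2 difference -0.92 ± 0.13, adjusted p = 0.00232), and the level without bFGF, 9.05 ± 0.919 TPM, was as low as the 9.72 ± 1.53 TPM without Pexmetinib. Egln3 (-0.67), Ptges (-0.72), Kcnj8 (-0.72), Lgals1 (-0.74) and Vstm5 (-0.81) were also under 2-fold. Clu was not called (log2 difference 1.84 ± 0.49, adjusted p = 0.0824), but it was called higher with the replicate block (log2 difference 1.84, adjusted p = 0.00386). The separate contrasts differed in size: against 8C -EGF 430 genes were called (3.36%), 288 higher (2.25%) and 142 lower (1.11%). Against 8C -bFGF there were 57 (0.446%), 54 higher (0.423%) and 3 lower (0.0235%), and against 8C -GSK3i 108 (0.851%), 59 higher (0.465%) and 49 lower (0.386%).

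Across the 10 organoid media of the series (49 libraries), levels are given as a description with no test, for replicates 4 to 6 of the media that have them and for replicates 1 to 3 of ENR +VE, which may belong with 8C 1 to 3. Ghrl was highest without Pexmetinib at 733 ± 199 TPM (mean ± SD, n = 3), followed by 461 ± 55.7 TPM in 8C without VPA and 307 ± 44.2 TPM in ENR medium with both VPA and EPZ6438. These 3 media did not overlap in their libraries, whereas ENR medium (EGF, Noggin and R-Spondin 1) was at 69.7 ± 6.57 TPM. Muc2 did not stand apart in this way, with 54.0 ± 11.6 TPM without Pexmetinib, 51.7 ± 10.2 TPM without VPA and 55.4 ± 13.1 TPM without either epigenetic drug. Stc1 and Chac1 were also low in media that lack VPA or EPZ6438. Stc1 was at 1.10 ± 0.195 TPM without Pexmetinib, 0.611 ± 0.213 TPM without VPA, 0.672 ± 0.126 TPM without EPZ6438 and 0.215 ± 0.1199 TPM without both. Chac1 was at 17.1 ± 7.41, 10.5 ± 2.53, 9.73 ± 4.03 and 6.71 ± 1.26 TPM in the same order.

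**Figure D5:**
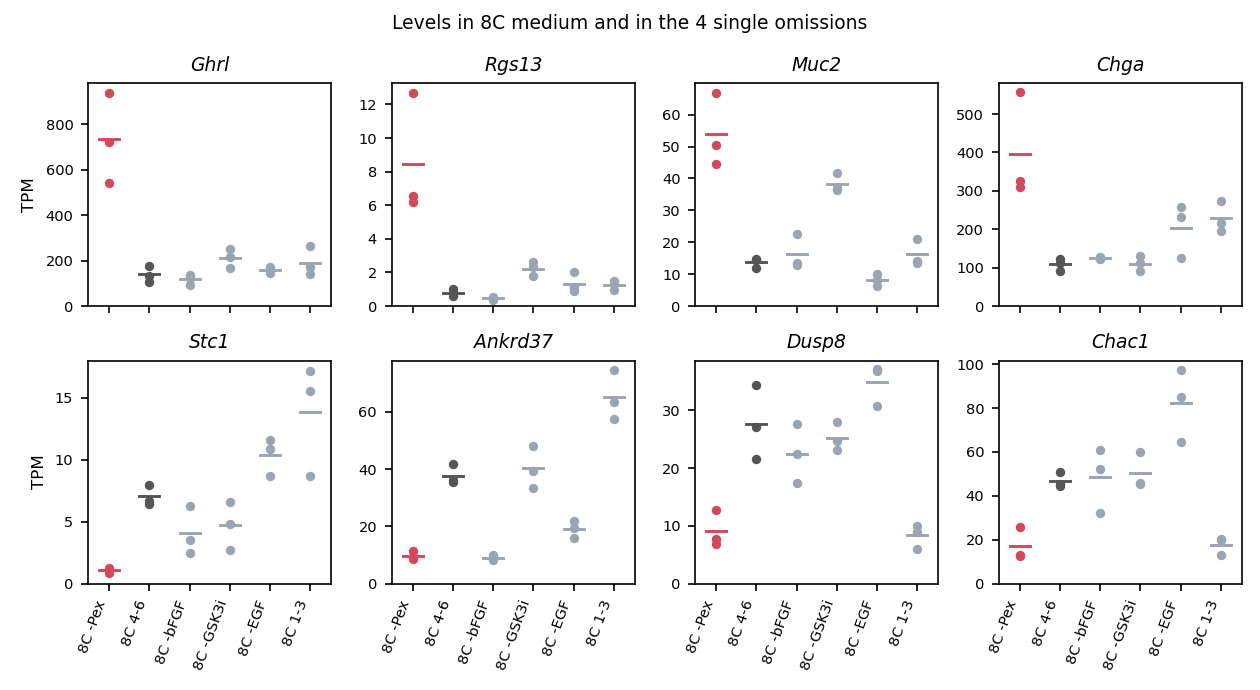
TPM on linear axes that start at 0 of Ghrl, Rgs13, Muc2, Chga, Stc1, Ankrd37, Dusp8 and Chac1 in 8C -Pex, 8C 4 to 6, the other 3 omission media and 8C 1 to 3, with 1 point per library and a line at each mean (n = 3). Ghrl and Rgs13 are highest without Pexmetinib, Dusp8 is as low in 8C 1 to 3 as without Pexmetinib, and Ankrd37 is as low without bFGF.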

How the data were processed

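Bulk RNA-seq of mouse organoids was analysed in 6 libraries, 3 without Pexmetinib and 3 in full 8C, with 9 libraries of other omissions for a second comparison. According to the submitters' processing notes and the study's methods, reads were cleaned by Trimmomatic 0.39, aligned to mm10 by STAR 2.7.3a and assigned to genes by featureCounts. What the authors deposited is one table of TPM for 29579 genes. The step from counts to TPM is not given in the sources used here, and TPM keeps no depth. Whether counting used strand or multi-mapped reads is not given either, so overlapping genes and near-identical copies are uncertain.

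All tests ran in R 4.3.3 on log2(TPM + 1) values. Genes averaging 1 TPM or more across the compared libraries entered limma 3.58.1 (lmFit, eBayes with trend and robust, two-sided). A call needed an adjusted p (Benjamini-Hochberg) under 0.05 and a change of 2-fold or more. Errors of log2 fold changes are standard errors, intervals are 95% intervals, and other errors are SD over 3 libraries. The second comparison used one fit over the 4 omission media. On simulated data for the first comparison (12609 genes), 88 of 100 genes changed by 1.5 and 99 of 100 changed by 3 on the log2 scale were recovered, with 3 false calls.

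Whether numbers pair the cultures was checked from deviations from the group means. 8C -Pex 1 to 3 correlated with 8C 4 to 6 at 0.43, 0.22 and 0.55 across genes, against 0.02 at most for other combinations, so n was paired with n + 3. The pairing comes from the data, not from the labels. The Y-linked gene Ddx3y was at 20.2 TPM in 8C -Pex 3 and 22.2 TPM in 8C 6 and at 0.0412 TPM or less in the other 4 libraries, so each group mixed sexes in the same way, and 0 of 4 tested sex-linked genes were called. The naming rule took, among called genes with no overlap and no predicted name, the top 12 in each direction by log2 fold change, every called member of the lists written with the design, and 14 genes of the p38 and Tie2 pathways and the regenerative state. Others were chosen after their values were seen. Some genes that the rule took are not reported here. The members and the lists were chosen with earlier results of these data known. There were 34 such lists, and the granule and hypoxia-inducible factor lists were added after seeing the data. Gene positions come from GENCODE vM21 and promoter windows from RefSeq. Alternatives covered the pseudocount, scaling, filters, moderation, controls, pairing, single libraries and a correction for transcript length.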

Additional observations from a re-analysis of the deposited data

How the results depend on the processing

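Every alternative left the direction of the tested calls unchanged except the use of 8C 1 to 3 as control. Of 49 named genes called, 13 kept the call in all 19 alternatives in which they were tested (among them Lrmp, Sh2d7, Spib, Ghrl, Rgs13, Klk1, Avil, Trpm5, Muc2, Mmp7, Stc1 and Ankrd37), and 27 kept it in all 6 fits that left out 1 library. Lrmp, Sh2d7, Spib and Rgs13 had passed the filter only through the group without Pexmetinib. The pseudocount, scaling and moderation alternatives gave 96 to 112 calls against 105. With no minimum TPM there were 66 calls, 14 of them lower, so that 78.8% were higher instead of 64.8%. With no minimum fold change 68 were lower. One fit over 15 libraries gave 66 lower. The correction for transcript length, chosen after seeing the data, gave 103 calls, 96 of them shared.

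The replicate block of n with n + 3 gave 203 calls, 129 higher and 74 lower. All 7 full 8C libraries gave 62 calls, 43 higher and 19 lower, of which 37 were among the 105. With 8C 1 to 3 there were 797 calls, 431 higher and 366 lower, and 43 of the 105 were shared. With a replicate block on the same number there were 524, 319 higher and 205 lower, although these numbers correlated at -0.39, -0.28 and 0.34. With these controls, blocked or not, the direction turned for Kcnj8 (0.50), Dusp8 (0.095), Ptges (1.15), Ccdc88b (0.25), Lgals1 (0.72), Sct (-0.46), Spdef (-0.27), Defa17 (-0.093), Ddit3 (0.29), Dusp1 (1.58), Ly6a (2.14) and Anxa1 (1.53, called only without the block). The sign also differed, with no call in either, for Mapk11 (0.32 against -0.48) and Olfm4 (-0.77 against 0.70). The cause was not tested. Leaving out 1 library gave 45 to 152 calls, 35 to 78 higher and 10 to 74 lower.

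For the second comparison (101 genes, 75 higher and 26 lower), a pseudocount of 0.1 TPM gave 41 lower, and a minimum mean of 5 TPM gave 65, 45 of them higher. No minimum fold change gave 359, 171 higher and 188 lower. Against 8C -EGF alone there were 430, 288 higher and 142 lower, against 8C -bFGF alone 57 with 3 lower, and against 8C -GSK3i alone 49 lower. Leaving out 1 library of 8C -Pex gave 66 to 131, with 49 to 82 higher and 17 to 49 lower. A replicate block on the shared number gave 148 genes, 111 higher and 37 lower, and among named genes it changed the call of Clu alone. The numbers deviated together in every pair with 8C -bFGF and 8C -GSK3i, but the last pair with 8C -EGF correlated at only 0.04. The other causes of these shifts were not tested. TPM without depth sets no limit of detection, and with 3 libraries a group the intervals of variable genes are wide.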

Other observations

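Some called genes fell outside the naming rule, and they were chosen after their values were seen. Guca2a and Guca2b encode guanylin and uroguanylin, peptides that regulate salt and water secretion in the gut. Guca2a was at 475, 535 and 308 TPM without Pexmetinib and 135, 147 and 104 TPM in full 8C (log2 fold change 1.74, adjusted p = 0.00551). Guca2b was at 151, 116 and 64.2 TPM against 31.3, 37.4 and 26.1 TPM (log2 fold change 1.70, adjusted p = 0.0325). The groups were separate for both. Iapp, the islet hormone amylin, was at 54.0, 25.4 and 31.7 TPM against 5.44, 5.93 and 10.3 TPM (log2 fold change 2.18, adjusted p = 0.00924). Alb, albumin, was at 10.4, 11.8 and 11.4 TPM against 2.48, 2.47 and 3.75 TPM (log2 fold change 1.66, adjusted p = 0.00322), and so joined Afp among the rises. G0s2, an inhibitor of lipolysis, was lower at 4.53, 3.26 and 2.67 TPM against 10.7, 10.3 and 9.46 TPM (log2 fold change -1.33, adjusted p = 0.0123).

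Among the 4 omission media, genes that the comparison with full 8C did not call also differed. The gut hormones Gcg (4.04 TPM without Pexmetinib, against 1.22, 0.236 and 0.442 TPM without EGF, bFGF and GSK3iXV) and Pyy (2.76 against 0.778, 0.371 and 0.739 TPM) were higher, with log2 differences of 1.60 and 1.28 from the mean of the other 3. Muc1, a membrane mucin, was higher as well (5.34 against 0.323, 0.663 and 0.671 TPM, log2 difference 1.91). Gcg, Pyy and Muc1 reached the mean of 1 TPM needed for testing only through the libraries without Pexmetinib. Their direction is therefore a description. The α-defensins Defa29, Defa36, Defa2 and Defa5 were lower, with log2 differences of -1.99, -1.39, -1.38 and -1.35. Their levels followed the medium without EGF: Defa5 averaged 195 TPM there, 24.4 TPM without bFGF, 19.8 TPM without GSK3iXV, 17.1 TPM without Pexmetinib and 14.0 TPM in full 8C. Defensin copies are near-identical, and reads may be split between them.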
